A study of Mus musculus with 12 samples.

Results

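The genes described here make NAD from niacin and its relatives, recycle it, or break it down. They are 10 of the 43432 genes in the deposited count table and were chosen by name for their place in NAD metabolism: *Naprt* and *Nadsyn1* of the Preiss-Handler route, the NMNAT adenylyltransferase genes *Nmnat1*, *Nmnat2* and *Nmnat3*, the salvage enzymes *Nampt* and *Nmrk1*, the nicotinamide methyltransferase *Nnmt*, and the NAD-consuming enzymes *Sarm1* and *Cd38*. None of the 10 was lost to the filter on low counts, which left 17257 genes to test. RNA came from sciatic nerves of 1-month-old mice at postnatal day 30, with 12 libraries in 3 groups of 4 mice, 3 males and 1 female in each group. The WT control mice carried 2 intact *Mtmr2* alleles and were untreated. The *Mtmr2* KO mice were null for *Mtmr2* (*Mtmr2* -/-), bred on a 129/SvPas background as a model of Charcot-Marie-Tooth neuropathy type 4B1, and their treatment is labelled as none, whereas the paper calls the group compared with niacin vehicle treated. The third group was *Mtmr2* -/- mice given niacin by intraperitoneal injection at 120 mg/kg from day 10 to day 21 and then a slow-release niacin, Niacin-SR, by gavage to day 30. No WT mice received niacin, so an effect of niacin without the *Mtmr2* deletion was not measured.

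Niacin (nicotinic acid) enters NAD through the Preiss-Handler route, in which NAPRT joins it to a ribose phosphate, an NMNAT enzyme adds the adenylate, and NADSYN1 amidates the product to NAD. Nicotinamide, which is released whenever an enzyme cleaves NAD, is brought back by NAMPT and an NMNAT enzyme, and nicotinamide riboside by NMRK1. The NMNAT enzymes differ in place: NMNAT1 is nuclear, NMNAT3 mitochondrial, and NMNAT2 a short-lived protein of the Golgi and of axons, where its loss lets SARM1 cleave NAD and the axon degenerate. In a nerve, RNA comes mostly from Schwann cells, fibroblasts, perineurial, vascular and immune cells and fat, since the cell bodies of the neurons lie outside it.

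Totals per library ran from 20763951 to 33191106 counts, and the level of a gene is given as CPM, the count scaled by the library total after TMM adjustment. *Mtmr2* itself was 128 to 161 CPM in WT control, 69.4 to 143 CPM in the libraries labelled *Mtmr2* KO and 66.7 to 73.4 CPM in the niacin-treated libraries. The library labelled *Mtmr2* KO replicate 4503 was the one at 143 CPM, within the WT control range, so its label and its *Mtmr2* level disagree. The library labelled *Mtmr2* KO replicate 4502 stood apart as well, with 56.7 CPM summed over 6 sensory neuron markers against 11.1 to 25.6 CPM in the other 11 libraries. In the niacin-treated replicates 4506 and 4507, 6 skeletal muscle markers summed to 2651 and 2509 CPM, against 23.9 to 78.1 CPM elsewhere. The myelinating Schwann cell markers that define the tissue were abundant in every library (summed 60360 to 115000 CPM). In whole nerve, fewer cells of a type and less RNA per cell cannot be told apart.

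The sequence upstream of *Nmnat2* is shown because this was the gene that changed most clearly. RefSeq promoter windows on GRCm38.p6, which run from 250 bases before to 50 bases after the start of a transcript, matched 8 of the 10 genes (no entry for *Naprt* and *Nnmt*). The *Nmnat2* window is printed up to the last base before the gene starts in the GENCODE annotation, 108 bases ahead of the RefSeq start, at chr1:152954851-152954992 on the + strand. Capitals mark TGACG, the half-site of the cAMP response element, a motif that was chosen after the sequence had been read.
Nmnat2: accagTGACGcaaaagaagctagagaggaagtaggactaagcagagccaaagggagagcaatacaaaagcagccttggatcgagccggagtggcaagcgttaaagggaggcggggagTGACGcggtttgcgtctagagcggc
The 2 half-sites begin 245 and 133 bases before the RefSeq start. *Nadsyn1*, *Nampt* and *Sarm1* each held 1 half-site in their window, shown with the bases around it and read 5′ to 3′ along the gene, at chr7:143822875-143822899 (− strand), chr12:32820190-32820214 (+ strand) and chr11:78497778-78497802 (− strand).
Nadsyn1: agctgggctaTGACGgcagaggggc
Nampt: cgcgctggggTGACGgtcggcttta
Sarm1: agaggcggggCGTCAaatccttgac
In *Sarm1* the half-site lies on the opposite strand and therefore reads CGTCA. Of all 32851 promoter windows, 20.8% held the half-site on either strand. None of the 8 genes held the full element TGACGTCA (1.79% of all windows, each of which also counts as a half-site), the E-box CACGTG (7.15%) or the glucocorticoid receptor motif, AGAACA and TGTTCT with 3 bases between them (0.00913%), each searched on both strands. A match is a description of the letters and says nothing of binding.

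Levels between genes were compared per length, as TPM, computed here from the counts and the summed exon length. In WT control nerves *Nampt*, the rate-limiting enzyme of nicotinamide salvage, was the most abundant of the 10 at 65.3 ± 5.41 TPM (SD, n = 4). It was followed by *Nnmt* at 48.7 TPM, *Naprt* at 31.0 TPM, *Cd38* at 13.3 TPM, *Nmrk1* at 10.6 TPM and *Nmnat2* at 8.59 TPM. *Nmnat1* and *Nadsyn1* came next at 7.25 and 7.12 TPM and overlapped each other, and *Nmnat3* at 3.63 TPM and *Sarm1* at 1.07 TPM were lowest. All other neighbours in this order were separated in all 4 WT control libraries. By mean TPM in the niacin-treated libraries, *Nmnat2* stood eighth of the 10 at 5.17 TPM and *Nmnat1* sixth at 8.64 TPM. *Nampt*, *Nnmt*, *Naprt* and *Cd38* kept the first 4 places. These places hold for the means only, since *Nmnat2* overlapped *Nmnat3* there and *Nmnat1* overlapped both *Nmrk1* and *Nadsyn1*. *Nampt* also overlapped *Nnmt*, and *Cd38* overlapped *Nmrk1*.

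**Figure D1:**
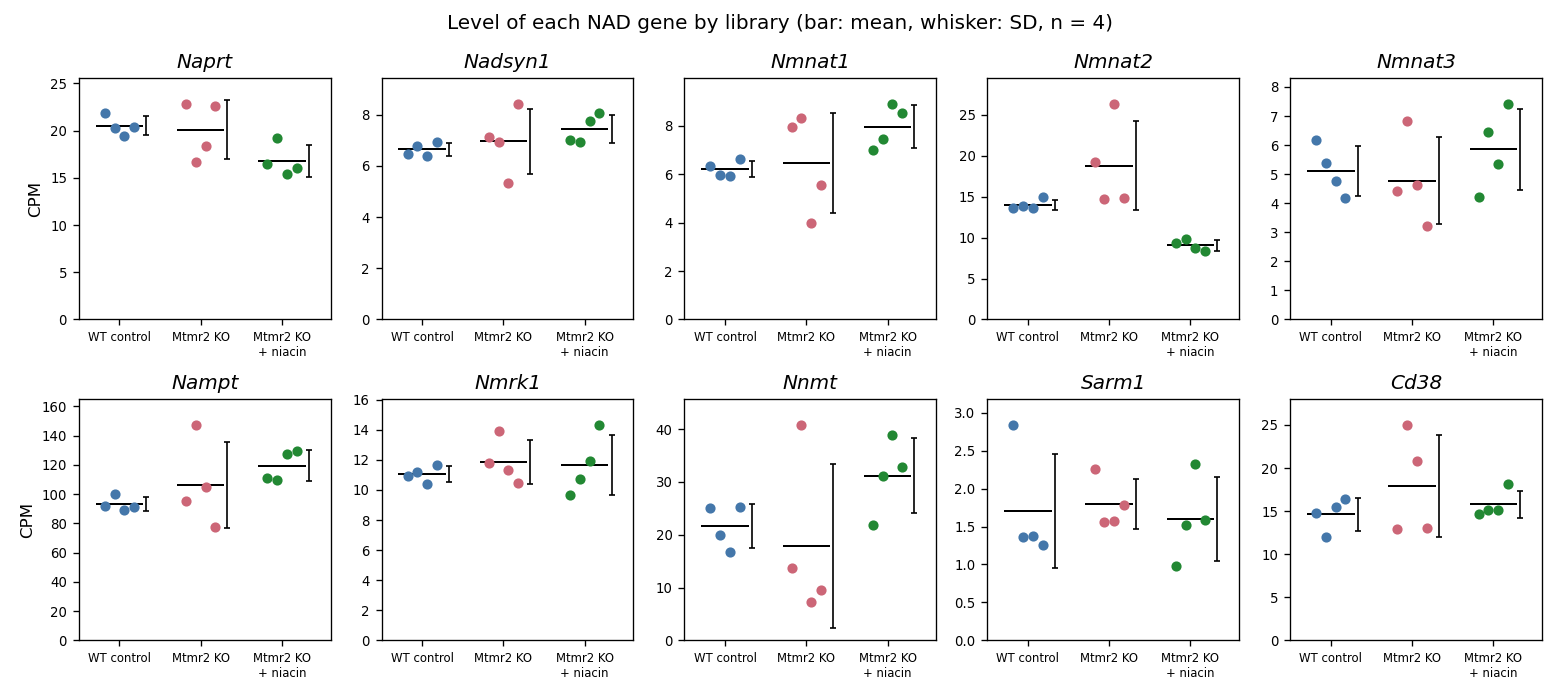
CPM of each of the 10 genes in the 12 libraries, 1 panel per gene with its own axis from 0, where a point is a library, the horizontal bar the group mean and the whisker the SD (n = 4). *Nmnat2* is the one gene whose niacin-treated libraries (8.35 to 9.87 CPM) lie below all 8 others, and the *Mtmr2* KO libraries spread more widely than WT control for every gene except *Sarm1*.

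The first comparison asked which genes differed in *Mtmr2* KO nerves without niacin. None of the 10 was called by edgeR's quasi-likelihood test (threshold 0.05 on the Benjamini-Hochberg adjusted p), where 46 of all genes (0.267%) were called. None was called by DESeq2 over the 12 libraries (3.47% of all genes) or by limma-voom (0.626%) either. At an unadjusted p under 0.05 the test passed 1 of the 10, *Nmnat2*, against 17.2% of all genes. For none of the 10 did the groups separate, against 9.33% of all genes. The median log2 fold change of the 10 was 0.07 and that of all genes 0.03.

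The second comparison asked which genes differed between niacin-treated and untreated *Mtmr2* KO nerves. If the latter mice had no treatment, as labelled, niacin cannot be told apart from its injection and gavage. *Nmnat2* was lower with niacin and was the only one of the 10 that was called, where 1.43% of all genes were called in either direction and 0.73% were called as lower. It was also the only one at an unadjusted p under 0.05, against 20.1% of all genes, and the only one whose groups did not overlap, against 6.98% of all genes. DESeq2 over the 12 libraries called the same gene alone (5.88% of all genes) and limma-voom called 4 of the 10, *Nmnat2*, *Nampt*, *Naprt* and *Nnmt* (11.6% of all genes). The third comparison set the niacin-treated *Mtmr2* KO nerves against WT control. There edgeR called none of the 10 and none of all 17257 genes (0%), with 3 of the 10 (*Nmnat2*, *Nampt* and *Naprt*) and 24.7% of all genes at an unadjusted p under 0.05. Its estimate of the spread was shared with the more uneven *Mtmr2* KO libraries, which are not part of this comparison. DESeq2 over the 12 libraries called 1 of the 10, *Nmnat2*, and 7.38% of all genes, and limma-voom called 5 of the 10 (*Nmnat2*, *Nampt*, *Naprt*, *Nmnat1* and *Nnmt*) and 42.4% of all genes. The groups did not overlap for 5 of the 10 genes, *Nadsyn1*, *Nmnat1* and *Nampt* being higher and *Naprt* and *Nmnat2* lower, beside 31.4% of all genes. The 3 comparisons share libraries in pairs, so their values are given side by side and were not correlated.

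**Figure D2:**
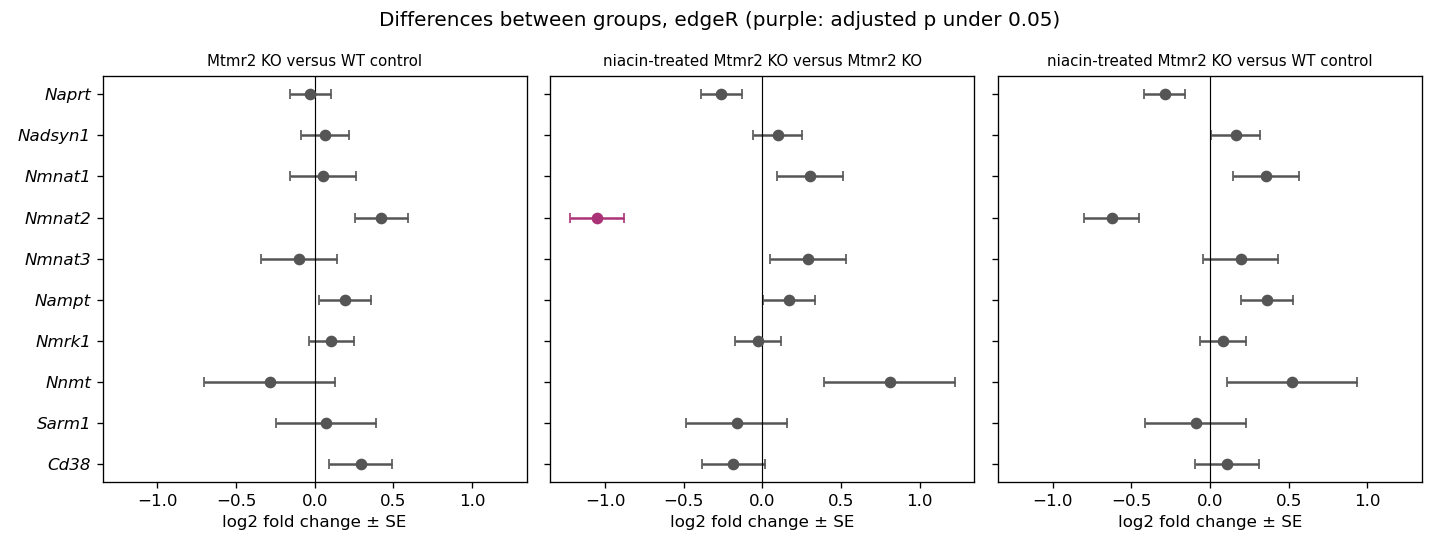
Log2 fold change with its SE from edgeR for the 10 genes in each comparison (n = 4 per group), with purple for an adjusted p under 0.05. *Nmnat2* in the niacin comparison, at −1.05, is the only purple point, and *Nnmt* has the longest whiskers, with an SE of 0.42 in that comparison.

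*Nmnat2* (ENSMUSG00000042751, chr1:152954993-153119261, + strand) encodes the adenylyltransferase that keeps axons alive. WT control replicates 4497 to 4500 had 13.6, 13.9, 13.6 and 14.9 CPM of it. The libraries labelled *Mtmr2* KO 4501 to 4504 had 19.3, 14.8, 26.3 and 14.9 CPM. Niacin-treated replicates 4505 to 4508 had 9.35, 9.87, 8.76 and 8.35 CPM, all below every WT control and *Mtmr2* KO library. In the *Mtmr2* KO group without niacin, 2 libraries stood at the WT control level and 2 above it, and the highest was replicate 4503, whose *Mtmr2* level was that of WT. Counts behind these values ran from 191 to 822 per library.

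From *Mtmr2* KO to niacin-treated *Mtmr2* KO, the mean of *Nmnat2* went from 18.8 ± 5.43 to 9.08 ± 0.667 CPM (SD, n = 4). On the log2 scale this was −1.05 (SE 0.17, edgeR adjusted p = 0.0383, exact permutation p = 0.0286, two-sided and the smallest that 4 against 4 libraries allow). Against WT control (14.02 ± 0.609 CPM) the log2 fold change of the niacin-treated group was −0.63 (SE 0.17, adjusted p = 0.0946 from edgeR, exact permutation p = 0.0286). *Mtmr2* KO was 0.43 above WT control on the log2 scale (SE 0.17, adjusted p = 0.224 from edgeR, exact permutation p = 0.0857), and 0.22 above it without replicate 4503. The difference between niacin-treated and untreated *Mtmr2* KO was −0.84 without replicate 4503 (edgeR adjusted p = 0.0486) and −1.16 without replicate 4502 (edgeR adjusted p = 0.00366). The fit without 4502 called 23.6% of all genes.

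The direction of the *Nmnat2* difference held in every alternative, but its call did not. Leaving out 1 library at a time kept the call in 6 of 12 fits. It was lost without niacin-treated replicates 4506 or 4507 (edgeR adjusted p of 0.0595 and 0.153) and without any 1 of the WT control replicates, 4497, 4498, 4499 or 4500 (0.0678, 0.0618, 0.0669 and 0.0619), while the log2 fold change stayed between −1.16 and −0.84 in all 12 fits. Of 8 other settings, 7 kept the call, among them DESeq2 over 12 libraries (adjusted p = 4.69e-05) and limma-voom (adjusted p = 0.00751), and edgeR on only the 2 groups compared lost it (adjusted p = 0.174). Against WT control 4 of the 8 settings called the lower level, DESeq2 over 12 libraries (adjusted p = 0.027) and over the 2 groups compared (adjusted p = 8.57e-06), limma-voom (adjusted p = 0.000785) and edgeR on the 2 groups compared (adjusted p = 0.0025). The other 4, all edgeR on 12 libraries, did not (adjusted p of 0.074 to 0.13). With a library left out it was called in 2 of 12 fits, without *Mtmr2* KO 4502 or 4503 (edgeR adjusted p of 0.014 and 0.0497). Many other genes were called as well against WT control. DESeq2 over 12 libraries called 7.38% of all genes, limma-voom 42.4% and the fit without 4502 21.6%. Both fits on the 2 groups compared called more genes than DESeq2 over 12 libraries, with the numbers given further below.

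The library with the highest sensory neuron markers, *Mtmr2* KO 4502, had 14.8 CPM of *Nmnat2*, close to WT control. The niacin-treated replicates 4506 and 4507, rich in muscle markers, had 9.87 and 8.76 CPM, and the other 2, with 67.6 and 78.1 CPM of the muscle markers, had 9.35 and 8.35 CPM. The summed level of 6 non-myelinating Schwann cell markers was 433 to 534 CPM in WT control, 573 to 913 CPM in *Mtmr2* KO and 525 to 734 CPM with niacin, and that of 6 endothelial markers 465 to 511, 200.1 to 577 and 223 to 352 CPM. *Scn7a* took most of the Schwann cell sum (264 to 747 CPM over the 12 libraries), and the other markers did not all follow it. With niacin against *Mtmr2* KO edgeR called none of these 6, while DESeq2 over 12 libraries called *Ncam1* and *Gfap* as lower (log2 fold changes from edgeR of −0.66 and −0.87), beside 5.88% of all genes. Against WT control the log2 fold changes of *Ncam1*, *L1cam*, *Ngfr* and *Gfap* ran from −0.48 to −0.17. Those of *Cadm2* and *Scn7a* were 0.12 and 0.64. None of them was called by edgeR, which called no gene in that comparison. There limma-voom called *Ncam1*, *L1cam*, *Gfap* and *Scn7a*, beside 42.4% of all genes. With niacin against *Mtmr2* KO limma-voom called *Ncam1*, *L1cam* and *Gfap*, beside 11.6% of all genes. Summed myelinating Schwann cell markers were 87440 to 111200 CPM in WT control, 81810 to 115000 in *Mtmr2* KO and 60360 to 99760 with niacin. Their log2 fold changes with niacin against *Mtmr2* KO ran from −0.78 to −0.14, and limma-voom called 2 of 6 and edgeR none. Of 6 perineurial markers, DESeq2 over 12 libraries called *Itgb4* as lower and *Lypd2* as higher in that comparison (−0.71 and 1.33 from edgeR). The part of these cells in the level of *Nmnat2* was not tested.

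*Nmnat1* (ENSMUSG00000028992, chr4:149467572-149485202, − strand) encodes the nuclear adenylyltransferase. WT control 4497 to 4500 measured 6.36, 5.96, 5.95 and 6.62 CPM, and the libraries labelled *Mtmr2* KO 4501 to 4504 measured 7.97, 8.32, 3.97 and 5.57 CPM. With niacin it was 6.998, 7.45, 8.90 and 8.52 CPM in replicates 4505 to 4508. The niacin-treated libraries lay above all WT control libraries, and the *Mtmr2* KO libraries lay on both sides of the WT control range, with 4503 lowest. The log2 fold change against WT control was 0.36 (SE 0.21, adjusted p = 0.288 from edgeR), which limma-voom called (0.43, adjusted p = 0.0116). Against *Mtmr2* KO it was 0.30 (SE 0.21, adjusted p = 0.437 from edgeR), and it ranged from 0.127, without 4503, to 0.43, without 4502, when 1 library was left out.

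*Nmnat3* (ENSMUSG00000032456, chr9:98287435-98420438, + strand), the mitochondrial form, was the least abundant of the NMNAT genes by group mean, with 67 to 173 counts per library. This did not hold in every library, since niacin-treated 4508 had 5.03 TPM of *Nmnat3* and 4.90 TPM of *Nmnat2*. It ranged from 4.16 to 6.18 CPM in WT control, from 3.22 to 6.85 CPM in *Mtmr2* KO and from 4.21 to 7.41 CPM with niacin, and the groups overlapped in every comparison. Its log2 fold change with niacin was 0.29 against *Mtmr2* KO (SE 0.24, adjusted p = 0.523 from edgeR) and 0.20 against WT control (SE 0.24, adjusted p = 0.625 from edgeR). With 1 library left out these ranged from 0.15, without *Mtmr2* KO 4504, to 0.49, without *Mtmr2* KO 4502, and from 0.059, without niacin-treated 4508, to 0.32, without niacin-treated 4505.

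Per length, *Nmnat2* made up 41.5%, 44.2%, 44.8% and 46.1% of the summed TPM of the NMNAT genes in WT control replicates 4497 to 4500. The share was 48.7%, 38.3%, 67.1% and 50.9% in *Mtmr2* KO 4501 to 4504, and 33.9%, 31.3%, 27.5% and 25.2% in niacin-treated 4505 to 4508. All niacin-treated libraries were thus below the 8 others, and *Mtmr2* KO 4503 was highest. The summed TPM of the 3 genes overlapped between groups, at 18.7 to 20.2 in WT control, 16.8 to 23.6 in *Mtmr2* KO and 15.3 to 19.5 with niacin. The ratio of *Nmnat2* to *Nmnat1* was 1.13 to 1.23 in WT control, 0.932 to 3.48 in *Mtmr2* KO and 0.515 to 0.702 with niacin. *Nmnat1* thus exceeded *Nmnat2* in all 4 niacin-treated libraries and in *Mtmr2* KO 4502, and in no WT control library. Both measures rest on the *Nmnat2* values above and are no separate test of them.

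**Figure D3:**
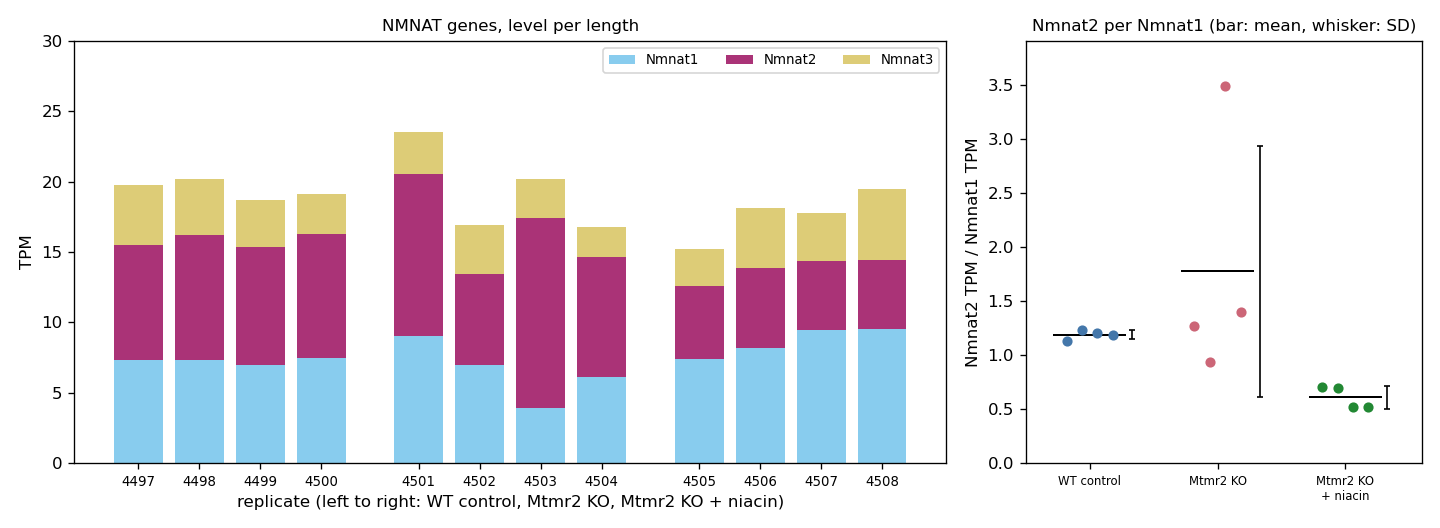
Left, summed TPM of *Nmnat1*, *Nmnat2* and *Nmnat3* in each library as stacked bars from 0. Right, the ratio of *Nmnat2* to *Nmnat1* by group, with a point per library, the mean and the SD (n = 4). The *Nmnat2* segment is smallest in the 4 niacin-treated libraries, where the ratio is 0.515 to 0.702, and the ratio of 3.48 belongs to *Mtmr2* KO replicate 4503.

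*Naprt* (ENSMUSG00000022574, chr15:75890956-75894481, − strand) encodes the enzyme that takes up niacin into the NAD pathway. WT control 4497 to 4500 measured 21.9, 20.3, 19.4 and 20.4 CPM of it and *Mtmr2* KO 4501 to 4504 had 22.8, 16.7, 18.4 and 22.6 CPM. With niacin it was 16.5, 19.2, 15.4 and 16.0 CPM in replicates 4505 to 4508. All niacin-treated libraries lay below WT control and overlapped *Mtmr2* KO, in which 4502 was lowest. The log2 fold change was −0.29 against WT control (SE 0.13, adjusted p = 0.192 from edgeR, exact permutation p = 0.0286) and −0.26 against *Mtmr2* KO (SE 0.13, adjusted p = 0.276 from edgeR, exact permutation p = 0.143). Without *Mtmr2* KO 4502 the latter was −0.36 (edgeR adjusted p = 0.04, in a fit that called 23.6% of all genes), and in the other 11 fits with a library left out it was uncalled and ran from −0.347 to −0.193. *Naprt* shares 277 exon bases (11.8% of its exon length) with *Eef1d* on the same strand, so its counts are uncertain by reads that could belong to either.

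*Nadsyn1* (ENSMUSG00000031090, chr7:143795584-143822849, − strand) encodes the last enzyme of the route. WT control 4497 to 4500 measured 6.47, 6.79, 6.38 and 6.93 CPM, and *Mtmr2* KO 4501 to 4504 measured 7.13, 6.93, 5.34 and 8.41 CPM. With niacin it was 6.998, 6.93, 7.76 and 8.05 CPM in replicates 4505 to 4508. The highest WT control and the lowest niacin-treated library differed by less than 0.01 CPM, and the log2 fold change between these groups was 0.16 (SE 0.15, adjusted p = 0.515 from edgeR).

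*Nampt* (ENSMUSG00000020572, chr12:32819545-32853349, + strand) was measured with 1614 to 3287 counts per library. WT control 4497 to 4500 measured 92.1, 99.8, 89.2 and 91.2 CPM, and *Mtmr2* KO 4501 to 4504 measured 95.3, 147, 105 and 77.6 CPM. With niacin it was 111, 109.9, 127 and 130 CPM in replicates 4505 to 4508. The niacin-treated libraries were all above WT control, whereas *Mtmr2* KO held both the highest library, 4502, and the lowest, 4504. The same 2 libraries had the highest and lowest sums of 6 white adipocyte markers, 4464 and 729 CPM. These sums overlapped between groups, at 2552 to 3356 CPM in WT control and 2124 to 4296 CPM with niacin. The part of fat in the level of *Nampt* was not tested. The log2 fold change was 0.36 against WT control (SE 0.17, adjusted p = 0.201 from edgeR, exact permutation p = 0.0286) and 0.17 against *Mtmr2* KO (SE 0.17, adjusted p = 0.594 from edgeR). Without 4502 these became 0.34 (edgeR adjusted p = 0.0376) and 0.35 (edgeR adjusted p = 0.043), in fits that called 21.6% and 23.6% of all genes. No other library left out gave a call, and the difference from *Mtmr2* KO was 0.048 without 4504 (edgeR adjusted p = 0.89) and 0.124 without 4501 (edgeR adjusted p = 0.751). The ratio of *Nampt* to *Naprt* per length was 1.95 to 2.28 in WT control, 2.66 to 3.83 with niacin, and 1.59 to 4.10 in *Mtmr2* KO.

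*Nmrk1* (ENSMUSG00000037847, chr19:18631950-18652428, + strand), the nicotinamide riboside kinase, ranged from 10.4 to 11.6 CPM in WT control, from 10.5 to 13.9 CPM in *Mtmr2* KO and from 9.69 to 14.3 CPM with niacin. The groups overlapped in every comparison. The log2 fold change with niacin was −0.03 against *Mtmr2* KO (SE 0.15, adjusted p = 0.938 from edgeR).

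*Nnmt* (ENSMUSG00000032271, chr9:48591877-48605153, − strand) encodes the enzyme that methylates nicotinamide and so removes it from salvage, and it is known as an abundant enzyme of white fat. WT control 4497 to 4500 had 25.0, 19.9, 16.7 and 25.3 CPM of it. In *Mtmr2* KO 4501 to 4504 it was 13.7, 40.7, 7.36 and 9.56 CPM, and in niacin-treated 4505 to 4508 it was 21.9, 31.1, 38.9 and 32.8 CPM. *Mtmr2* KO 4502 was the highest of all 12 libraries and the other 3 *Mtmr2* KO libraries the lowest. With 4502 the log2 fold change with niacin against *Mtmr2* KO was 0.81 (SE 0.42, adjusted p = 0.294 from edgeR, exact permutation p = 0.143) and without it 1.59 (edgeR adjusted p = 0.00434). The fit without 4502 called 23.6% of all genes. Without 4503 the log2 fold change was 0.55 (edgeR adjusted p = 0.577) and without 4504 it was 0.61 (edgeR adjusted p = 0.451). Limma-voom, with weights for the quality of each library, gave 1.54 (adjusted p = 0.0145) and called 11.6% of all genes. Against WT control the log2 fold change with niacin was 0.52 (SE 0.41, adjusted p = 0.429 from edgeR), and the groups overlapped. Between *Mtmr2* KO and WT control it was −0.29 (SE 0.42, adjusted p = 0.75 from edgeR) and, without 4502, −1.09 (edgeR adjusted p = 0.0583), whereas it was −0.03 without 4503 (edgeR adjusted p = 0.974) and −0.091 without 4504 (edgeR adjusted p = 0.928).

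The white adipocyte markers are given beside *Nnmt*. The 6 markers, *Adipoq*, *Plin1*, *Cfd*, *Fabp4*, *Lep* and *Cidec*, summed to 3146, 3246, 2552 and 3356 CPM in WT control 4497 to 4500. They summed to 1872, 4464, 1655 and 729 CPM in *Mtmr2* KO 4501 to 4504 and to 2124, 3255, 3686 and 4296 CPM in niacin-treated 4505 to 4508. The *Mtmr2* KO library with the most *Nnmt*, 4502, also had the highest summed marker level of the 12 libraries, and the 3 libraries with the least *Nnmt* had the lowest. *Cfd* and *Fabp4* took most of this sum (316 to 2391 and 251 to 1228 CPM in *Mtmr2* KO), and the markers did not all follow it. *Lep* was 9.15 to 16.3 CPM and *Plin1* 25.9 to 85.2 CPM over the 4 *Mtmr2* KO libraries, 4502 included, against 39.5 to 77.6 CPM and 157 to 242 CPM in WT control. All 6 markers were detected in every group. Of the 6, edgeR called 2, *Plin1* and *Lep*, as lower in *Mtmr2* KO than in WT control (0.267% of all genes were called in either direction), and 1, *Lep*, as higher with niacin than in *Mtmr2* KO (1.43% of all genes). In *Mtmr2* KO against WT control DESeq2 over 12 libraries called 2 (3.47% of all genes) and limma-voom 3 (0.626%). With niacin against *Mtmr2* KO these called 2 (5.88%) and 5 (11.6%), and the log2 fold changes from edgeR ran from 0.177 to 1.835. With niacin against WT control neither called any. The part of fat in the level of *Nnmt* was not tested.

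**Figure D4:**
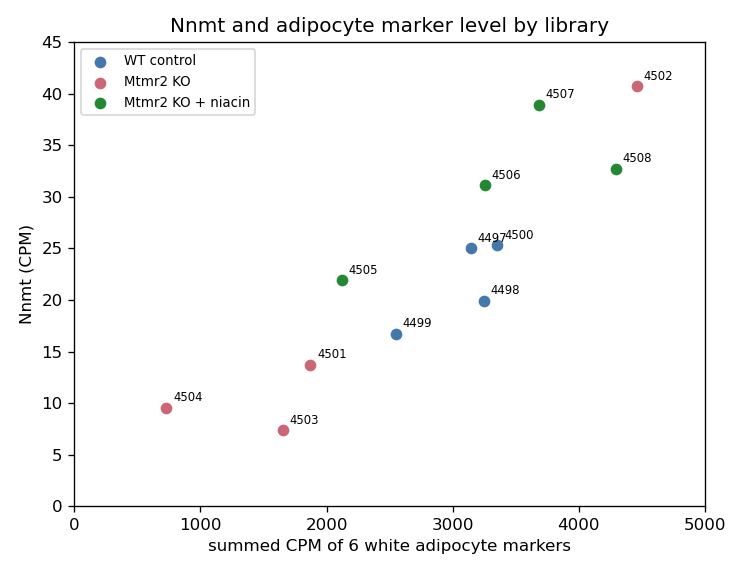
*Nnmt* level (CPM) against the summed CPM of 6 white adipocyte markers, with a point per library labelled by its replicate number and coloured by group. The 3 *Mtmr2* KO libraries 4501, 4503 and 4504 lie at the lower left, with 7.36 to 13.7 CPM of *Nnmt*, and *Mtmr2* KO 4502 at the upper right with 40.7 CPM.

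Among the NAD-consuming enzymes, *Sarm1* (ENSMUSG00000050132, chr11:78472330-78497754, − strand), the NADase that triggers axon degeneration, had the fewest counts of the 10, with 20 to 78 per library. It measured 2.83, 1.36, 1.38 and 1.26 CPM in WT control 4497 to 4500, 2.26, 1.57, 1.57 and 1.78 CPM in *Mtmr2* KO 4501 to 4504, and 0.979, 1.52, 2.33 and 1.58 CPM in niacin-treated 4505 to 4508. The groups overlapped, and no difference was called. The log2 fold change with niacin was −0.16 against *Mtmr2* KO (SE 0.32, adjusted p = 0.808 from edgeR), and from −0.39, without niacin-treated 4507, to 0.011, without niacin-treated 4505, when 1 library was left out.

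*Cd38* (ENSMUSG00000029084, chr5:43868553-43912375, + strand) encodes an ectoenzyme of immune and other cells that hydrolyses NAD. It was 14.8, 11.96, 15.5 and 16.4 CPM in WT control 4497 to 4500, 12.9, 25.0, 20.8 and 13.1 CPM in *Mtmr2* KO 4501 to 4504 and 14.7, 15.1, 15.2 and 18.2 CPM in niacin-treated 4505 to 4508. *Mtmr2* KO 4502 and 4503 were above all others and the groups overlapped. The log2 fold change was 0.29 for *Mtmr2* KO against WT control (SE 0.20, adjusted p = 0.474 from edgeR) and −0.18 for niacin against *Mtmr2* KO (SE 0.20, adjusted p = 0.641 from edgeR). Without 4502 these became 0.091 and −0.002, and with each of the other libraries left out they lay within 0.201 to 0.42 and −0.31 to −0.104. The summed level of 6 macrophage markers was 416 to 466 CPM in WT control, 382 to 711 CPM in *Mtmr2* KO and 471 to 728 CPM with niacin, and their part in *Cd38* was not tested.

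Over the 12 libraries, the genes whose log2 level was most like that of *Nmnat2* were *Epn1*, *Cacnb3* and *Galnt16* (Pearson r of 0.979, 0.97 and 0.965). For *Nampt* they were *Osbpl9*, *Pde1a* and *Cops3* (r of 0.973, 0.973 and 0.953), for *Naprt* *Pcyox1l*, *Csrnp2* and *Usp42* (0.942, 0.941 and 0.939), for *Nmnat1* *Dkc1*, *Eef2kmt* and *Gbp2b* (0.967, 0.962 and 0.951) and for *Nadsyn1* *Atp6v0d2*, *Gm11451* and *Selplg* (0.902, 0.875 and 0.873). These were the 3 highest of all tested genes in each case, the 12 points span the 3 groups, and *Mtmr2* KO 4502 and 4503 are the extreme points of several genes. Among the 10 genes, the strongest relation was between *Naprt* and *Nampt*, with an r of −0.854 over the same 12 libraries.

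The rest of NAD metabolism was followed in 9 lists of 76 genes, of which 67 were tested. No gene of these lists was called by edgeR in any of the 3 comparisons, with 10, 14 and 7 of the 67 at an unadjusted p under 0.05 in *Mtmr2* KO against WT control, niacin against *Mtmr2* KO and niacin against WT control, beside 17.2%, 20.1% and 24.7% of all genes. DESeq2 over 12 libraries called 1 (*Art3*), 3 (*Art3*, *Enpp3* and *Parp16*) and 1 (*Parp1*) of the 67, beside 3.47%, 5.88% and 7.38% of all genes, and limma-voom 0, 8 and 16, beside 0.626%, 11.6% and 42.4%. In niacin against WT control DESeq2 also called *Art1*, a listed gene that did not pass the edgeR filter. It was 0.0856 to 7.03 CPM with niacin (3.32 ± 3.70, SD, n = 4) and at most 0.254 CPM in WT control. The skeletal muscle markers were uneven in the niacin-treated group, with sums of 2651 and 2509 CPM in replicates 4506 and 4507. In replicates 4505 and 4508 they summed to 67.6 and 78.1 CPM, and their part in *Art1* was not tested. The groups separated for 7, 5 and 17 of the 67 genes, beside 9.33%, 6.98% and 31.4% of all genes. The median log2 fold change of the 67 was 0.07, −0.06 and 0.04, and that of all genes 0.03, −0.04 and 0.02.

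In *Mtmr2* KO against WT control and with niacin against *Mtmr2* KO, the list with the widest shifts was that of other NAD-hydrolysing and ectoenzymes. It had 7 genes tested and a median log2 fold change of 0.67 and −0.60, in that order. With niacin against WT control the de novo route from tryptophan had a larger median, 0.37, against 0.27 for the ectoenzyme list. Most of the 6 tested genes of the de novo route lay near the floor, with WT control means from 0.504 to 7.27 CPM. *Art3*, a member of the ADP-ribosyltransferase family and the most abundant of the ectoenzyme list per length, was 362 to 394 CPM in WT control, 476 to 1032 CPM in *Mtmr2* KO and 407 to 500.3 CPM with niacin. Its groups separated in *Mtmr2* KO against WT control, where the log2 fold change of 1.00 had an adjusted p of 0.0805 from edgeR and was called by DESeq2 over 12 libraries. *Enpp3*, an ectoenzyme that splits nucleotides, was 5.04 to 6.83 CPM in WT control, 1.81 to 5.86 CPM in *Mtmr2* KO and 6.21 to 9.49 CPM with niacin, with a log2 fold change of 1.27 against *Mtmr2* KO (adjusted p = 0.0524 from edgeR).

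The 15 PARP and tankyrase genes, which consume NAD to modify proteins, had a median log2 fold change of −0.01, 0.02 and −0.11 in the 3 comparisons in the order above. *Parp16* was 16.9 to 19.9 CPM in WT control, 15.4 to 48.0 CPM in *Mtmr2* KO and 9.49 to 13.9 CPM with niacin (log2 fold change with niacin −1.12 against *Mtmr2* KO, adjusted p = 0.0786 from edgeR), and DESeq2 over 12 libraries called it. *Parp1*, the main DNA damage sensor of the family, was 54.5 to 68.0 CPM in WT control and 34.3 to 46.8 CPM with niacin (log2 fold change −0.62, adjusted p = 0.104 from edgeR) and was called by DESeq2 over 12 libraries.

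Of the 7 sirtuins, NAD-dependent deacylases, *Sirt2* was the most abundant per length at 428 TPM in WT control. It was 563 to 639 CPM in WT control, 728 to 857 CPM in *Mtmr2* KO and 547 to 879 CPM with niacin, and was separate and 0.34 higher on the log2 scale in *Mtmr2* KO than in WT control (adjusted p = 0.28 from edgeR). In the list of *Nmnat2* turnover and axon degeneration, with 8 genes tested, no groups separated between niacin and *Mtmr2* KO (6.98% of all genes did), and log2 fold changes ran from −0.34 to 0.09. Between niacin and WT control 4 of the 8 separated, 2 higher and 2 lower, beside 31.4% of all genes. *Mycbp2*, *Fbxo45* and *Skp1a*, which encode the ubiquitin ligase complex that degrades NMNAT2, had log2 fold changes of 0.09, −0.04 and −0.06 for niacin against *Mtmr2* KO (adjusted p of 0.731, 0.888 and 0.896 from edgeR). Against WT control these were −0.07, −0.15 and 0.39 (adjusted p of 0.775, 0.431 and 0.258 from edgeR). *Fbxo45* was there separate and lower, and *Skp1a* separate and higher and called by limma-voom (adjusted p = 0.00368).

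The most abundant genes per length of the other lists in WT control were *Nadk*, the NAD kinase (219.8 TPM), *Qprt* of the de novo route from tryptophan (9.74 TPM), *Mat2a*, which makes the methyl donor that NNMT uses (217 TPM), *Slc16a1*, a monocarboxylate transporter (130.0 TPM), *Naxe*, a repair enzyme of damaged NADH and NADPH (227 TPM), *Tnks2*, a tankyrase (72.8 TPM), and *Skp1a* (290.2 TPM). None of these 7 was called by edgeR in any comparison, with log2 fold changes from −0.47 to 0.50.

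**Figure D5:**
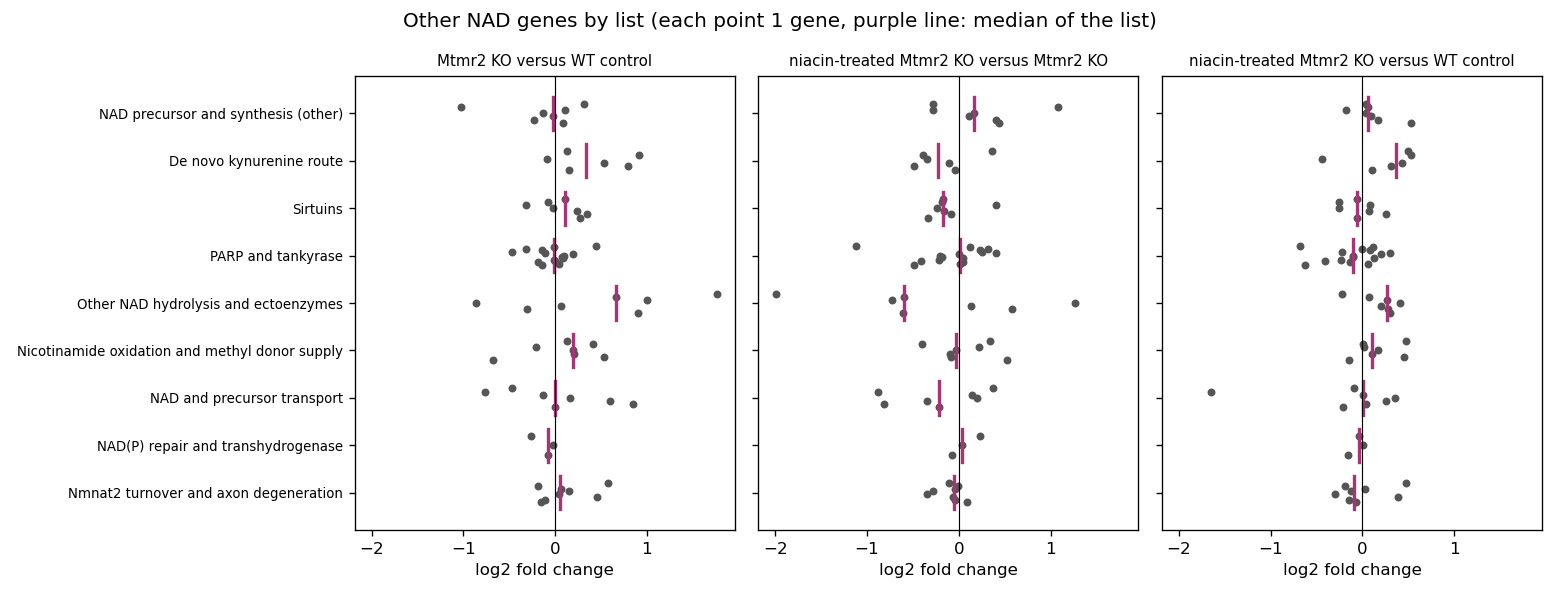
Log2 fold change from edgeR of the 67 tested genes of the 9 other NAD lists in the 3 comparisons, with a point per gene and a purple line at the median of each list. The list of other NAD hydrolysis and ectoenzymes has its median at 0.67 in the left panel and at −0.60 in the middle one, while the medians of the other lists lie nearer 0.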

How the data were processed

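RNA of 12 sciatic nerves was selected for polyA tails and sequenced on an Illumina HiSeq instrument. According to the submitters' processing notes CASAVA 1.9, STAR and DESeq2 were used, with the genome GRCm38. The authors deposited raw counts per Ensembl gene. How reads were counted, on which annotation and with what strand setting, was not given in the sources used here. Tables made by the authors, with their fold changes and p-values, served only to pair gene identifiers with symbols (42615 of 43432). Of the identifiers, 42548 were found in GENCODE M21, which gave coordinates and exon lengths.

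Counts were filtered with filterByExpr, scaled by TMM and fitted in 1 quasi-likelihood model over 12 libraries (edgeR 4.0.16, R 4.3.3), without covariates, with Benjamini-Hochberg adjustment over 17257 genes and a threshold of 0.05. The test's library sizes were the totals over tested genes, whereas the printed CPM used all counts with TMM factors, and log2 CPM a prior count of 2. TPM were computed here from counts and summed exon lengths. Groups separate when all 4 libraries of one lie on one side of the other. Exact permutation tests were two-sided over 70 splits, with a smallest p of 0.0286. The fit was tested on simulated data, and no result given here rests on that test. P-values of the edgeR test rest on 1 estimate of the spread between mice, shared by all groups. The more uneven *Mtmr2* KO libraries therefore also enter niacin against WT control. For *Nmnat2* the SD of log2 CPM was 0.061 in WT control, 0.392 in *Mtmr2* KO and 0.105 with niacin.

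Groups came from the sample labels. The 10 genes, the 9 lists and 13 lists of cell markers were chosen with earlier results of these data known. The text names all 10 genes, in the other lists the most abundant per length, and for genes called or separate the 3 most alike. *Art1*, *Enpp3*, *Parp1*, *Parp16*, *Mycbp2* and *Fbxo45* were named after their values were seen. Alternatives were DESeq2 1.42.0 over 12 libraries and over the 2 groups compared, limma-voom 3.58.1 weighted by library quality, edgeR with the size factors of DESeq2, edgeR restricted to the 2 groups compared, no filter except 1 count, at least 10 counts in every library, *Xist* as a covariate for sex, and each library left out in turn.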

Additional observations from a re-analysis of the deposited data

Results flagged for a closer look

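Of 30 sets of 4 libraries examined (10 genes in 3 groups), 2 held a library far from the other 3, judged on log2 CPM by its gap to the nearest library as a share of the whole range, against Dixon's limit for 4 values. Chance gives such a gap in about 1 of 20 sets. *Sarm1* in WT control replicate 4497 was 1.54 on the log2 CPM scale against 0.42 to 0.54 in the other 3, a share of 0.893, from 78 counts against 37 to 38. *Cd38* in niacin-treated replicate 4508 was 4.19 on the log2 CPM scale against 3.88 to 3.93 in the other 3, a share of 0.838.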

How the results depend on the processing

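No paired analysis was possible because the replicate numbers of the 3 groups (4497 to 4508) are all different. Of 600 member fold changes recomputed under the alternatives, 541 kept their direction and their side of the threshold, 24 passed it only there, 7 lost it (all of them *Nmnat2* with niacin against *Mtmr2* KO) and 28 changed sign. None of the fold changes that changed sign was past the threshold in the reported test or in the alternative, and the cause was not tested. The counts of genes called moved far more than the fold changes. Counts were lowest for *Sarm1*, at 20 to 78 per library, so that counting error weighs most in its values.

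The number of the 10 genes called with niacin against *Mtmr2* KO was 1 as reported, 0 with edgeR on the 2 groups compared, 4 with limma-voom and 0 to 4 with a library left out. Against WT control it was 0 as reported, 1 with DESeq2 on 12 libraries, 4 with DESeq2 on the 2 groups compared, 5 with edgeR on these 2 groups, 5 with limma-voom and 0 to 2 with a library left out. For *Mtmr2* KO against WT control it was 0 throughout. All genes called in *Mtmr2* KO against WT control numbered 46 as reported, 659 and 432 with DESeq2 on 12 libraries and on the 2 groups, 12 with the *Xist* covariate, 0 with edgeR on the 2 groups, 108 with limma-voom, 341 without the filter and 0 to 457 with a library left out. With niacin against *Mtmr2* KO the numbers were 246 as reported and then, in the same order, 1039, 444, 50, 0, 2007, 573 and 0 to 4180. With niacin against WT control they were 0 as reported, 1067 and 5710 with DESeq2 on 12 libraries and on the 2 groups, 5586 with edgeR on the 2 groups, 7311 with limma-voom, 311 without the filter and 0 to 3826 with a library left out.

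Changes of sign in *Mtmr2* KO against WT control were found with limma-voom for *Naprt* (log2 fold change 0.09), *Nampt* (−0.031) and *Cd38* (−0.023), and without the filter for *Nadsyn1* (0.00) and *Nmnat1* (−0.02). With a library left out the ranges were −0.098 to 0.05 for *Naprt*, −0.045 to 0.172 for *Nadsyn1*, −0.097 to 0.229 for *Nmnat1*, −0.32 to 0.04 for *Nmnat3*, −0.011 to 0.307 for *Nampt* and −0.068 to 0.423 for *Sarm1*. With niacin against *Mtmr2* KO, limma-voom changed the sign for *Nmrk1* (0.043) and *Cd38* (0.1), and the ranges with a library left out were −0.01 to 0.204 for *Nadsyn1*, −0.136 to 0.056 for *Nmrk1* and −0.394 to 0.011 for *Sarm1*. With niacin against WT control, limma-voom changed it for *Sarm1* (0.15), and the ranges were −0.034 to 0.155 for *Nmrk1* and −0.33 to 0.262 for *Sarm1*.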
